A study of Mus musculus with 11 samples.

Results

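The 9 genes examined here, with which fibroblasts build their extracellular matrix, are Col1a1, Col1a2, Col3a1, Col5a1, Col5a2, Col4a1, Col4a2, Fn1 and Sparc. HIV integration at them was mapped by HITseq, in which a protein fused to a domain that binds the viral integrase is expressed in cells and the integration sites serve as a stand-in for its positions on chromatin. The genes were chosen by name from the 37252 annotated genes on chromosomes 1 to 19 and X, and every distinct site (chromosome, base and strand) within 5 kb of their mm9 gene models was taken. These windows cover 797897 bases and held 1163 of the 831994 distinct sites in the 11 libraries. All 9 fibroblast marker genes listed for comparison, Vim, Pdgfra and Pdgfrb among them, lay above the median protein-coding gene in site density. So did 3 of 6 epithelial markers (Krt8 among them), 1 of 4 endothelial, 1 of 5 blood (Cd68) and 1 of 3 hepatocyte markers.

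All libraries came from LEDGF-/- mouse embryonic fibroblasts of strain C57BL/6. The cells received, by electroporation, a plasmid coding for 1 protein joined to LEDGF-IBD, the domain of LEDGF that binds HIV integrase, were infected with HIV 24 hours later and were cultured for 3 more days. The fused proteins were NELFA, NELFB, NELFCD and NELFE of the negative elongation factor NELF (4 libraries), the elongation factor SPT5 (1 library), and 6 proteins of Integrator and its SOSS partner complex (INTS3, INIP, NABP1, NABP2, INTS9 and INTS11, 1 library each). Each protein has 1 library, so subunits of a complex stand in for replicates, and the spread between them mixes differences between proteins with technical spread. Cells without a fused protein were not analysed here, so the share of sites led by the fusion was not tested, and all groups share the LEDGF loss. The 4 NELF libraries ran on 1 flow cell, per the read names, and no flow cell named there held both NELF and Integrator libraries. For INTS11 and part of INTS9 the name read only FC, so their flow cell is not known. Complex and flow cell cannot be told apart.

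LEDGF normally tethers the HIV preintegration complex to transcribed chromatin, and a fused chromatin protein can take over that role. NELF holds RNA polymerase II just downstream of promoters, SPT5 (part of DSIF) accompanies the polymerase through pausing and elongation, and Integrator cleaves nascent RNA and ends transcription. Fibrillar collagens I, III and V form the fibres of connective tissue; collagen IV forms the sheets of basement membranes, and its alpha 1 and alpha 2 chain genes are transcribed away from each other from a shared promoter region. Fibronectin (Fn1) and SPARC are secreted proteins through which cells shape and bind the matrix.

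RefSeq promoters (250 bases before to 50 after each start, GRCm38.p6 table) were on hand for 6 of the 9 genes and were placed in mm9 by exact match. The promoters of 4 of them are shown because they span the range of the results. They are Sparc, with the highest site density, Col4a2, which shares a promoter region with Col4a1, Col1a2, and Col3a1, with the fewest sites. The Col4a2 promoter lies inside the 1 kb with the most NELF sites of that gene (12 of 36, from NELFA, NELFB and NELFCD). Capitals mark 3 promoter motifs searched on either strand, which do not overlap in these windows: TATAAA for the core promoter's TATA box, the binding motif CCAAT of the factor NF-Y, and the GC box of Sp1-like factors, GGGCGG.

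Sparc, chr11:55233533-55233832, minus strand: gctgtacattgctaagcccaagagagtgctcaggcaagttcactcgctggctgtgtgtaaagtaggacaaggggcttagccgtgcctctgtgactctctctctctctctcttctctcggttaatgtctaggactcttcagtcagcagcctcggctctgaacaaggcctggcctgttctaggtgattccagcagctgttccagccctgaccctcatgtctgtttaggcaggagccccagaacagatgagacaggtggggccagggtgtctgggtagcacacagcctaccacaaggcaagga
Col4a2, chr8:11312555-11312854, plus strand: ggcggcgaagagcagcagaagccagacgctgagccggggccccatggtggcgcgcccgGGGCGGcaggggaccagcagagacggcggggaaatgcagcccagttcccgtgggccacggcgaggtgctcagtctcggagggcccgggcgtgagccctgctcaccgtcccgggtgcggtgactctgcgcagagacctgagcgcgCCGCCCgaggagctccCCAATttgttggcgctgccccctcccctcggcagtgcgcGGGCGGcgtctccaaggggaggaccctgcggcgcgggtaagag
Col1a2, chr6:4455368-4455667, plus strand: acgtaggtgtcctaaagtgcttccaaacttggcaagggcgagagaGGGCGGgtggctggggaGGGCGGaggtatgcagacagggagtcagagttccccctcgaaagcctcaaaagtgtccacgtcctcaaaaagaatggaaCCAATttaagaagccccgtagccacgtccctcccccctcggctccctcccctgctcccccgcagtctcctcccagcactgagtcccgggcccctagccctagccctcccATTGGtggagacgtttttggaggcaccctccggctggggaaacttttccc
Col3a1, chr1:45368133-45368432, plus strand: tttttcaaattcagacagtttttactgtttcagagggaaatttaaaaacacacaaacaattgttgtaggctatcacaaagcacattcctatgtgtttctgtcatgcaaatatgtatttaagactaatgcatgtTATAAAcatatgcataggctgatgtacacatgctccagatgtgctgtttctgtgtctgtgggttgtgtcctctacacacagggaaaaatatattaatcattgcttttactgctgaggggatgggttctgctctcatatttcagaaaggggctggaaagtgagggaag

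The 4 promoters differ in base composition. G and C made up 73.7% of the Col4a2 promoter, 61% of Col1a2, 55.3% of Sparc and 37.7% of Col3a1, against a median of 52.7% over the 32851 promoters of the table. TATAAA, present in 13.6% of all table promoters, was found in Col3a1 alone of the 6, with its first base at -117 from the start. Whether this match acts as a TATA box was not tested. GGGCGG, present in 35.7% of table promoters, occurred 3 times in Col4a2, 2 times in Col1a2 and in Col5a1, and 1 time in Col4a1, and CCAAT, present in 37.4%, was found in Col1a2, Col4a1 and Col4a2. The 300 bases held 8 sites at Col4a2 (3 NELF, 1 SPT5, 4 Integrator) and 5 at Sparc (0 NELF, 1 SPT5, 4 Integrator). They held 3 at Col1a2 (0 NELF, 1 SPT5, 2 Integrator) and 0 at Col3a1.

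Taken as 1 territory, the windows of the 9 genes received 163, 110, 133 and 229 sites per 100000 in the NELFA, NELFB, NELFCD and NELFE libraries, 196 with SPT5, and 127, 96.4, 152, 187, 102 and 67.8 in the INTS3, INIP, NABP1, NABP2, INTS9 and INTS11 libraries. The means were 159 ± 51.8 for NELF (SD, n = 4) and 122 ± 42.9 for Integrator (SD, n = 6), and the ranges of the NELF and Integrator libraries overlapped. Set against an even spread of sites over the genome, these are densities of 5.09 ± 1.66, 6.29 and 3.91 ± 1.37 times uniform for NELF, SPT5 and Integrator. Every library exceeded uniform density, the lowest being INTS11 at 2.17 times (exact Poisson 95% interval 1.38 to 3.26). The library totals behind these rates run from 18753 sites (NELFE) to 197069 (INTS9), and the interval covers counting error only.

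The individual genes spread widely around that level. Density per base, as fold over uniform and averaged over the 11 libraries, was 14.6 at Sparc and 13.9 at Col1a1, 6.06 at Col4a1, 5.58 at Col1a2, 4.64 at Col4a2, 4.50 at Fn1, 3.42 at Col5a1, 2.94 at Col5a2 and 1.17 at Col3a1. Sparc ranked 525 and Col1a1 590 among 22350 protein-coding genes, whereas Col3a1 ranked 11959, below the median gene at 1.31 times uniform. The SDs over libraries were 7.57 for Sparc, 10.3 for Col1a1 and 1.04 for Col3a1, and each step in this order, from Sparc down to Col3a1, was smaller than the larger SD of the 2 neighbours.

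**Figure D1:**
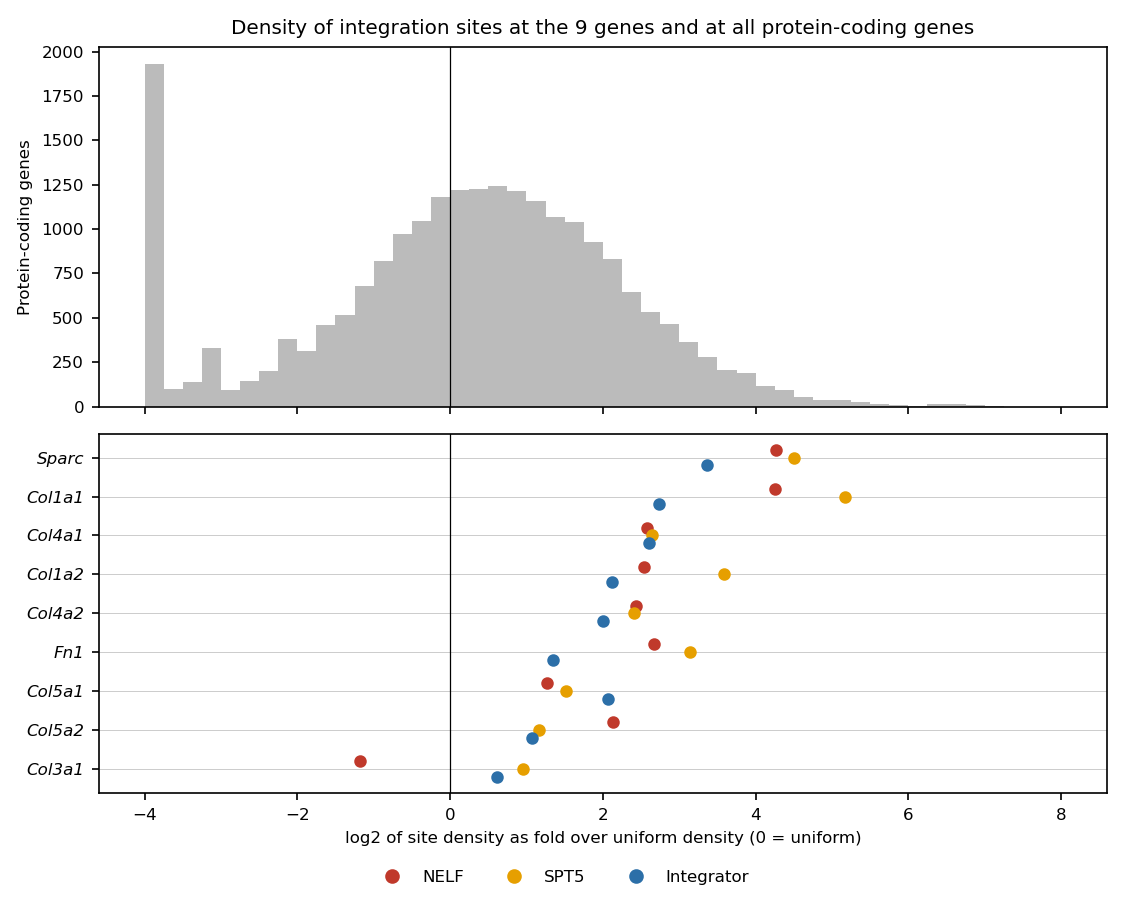
Distribution of site density over 22350 protein-coding genes (upper panel, mean of 11 libraries, log2 fold over uniform density; the first bar includes the 1722 genes without a site) and the 9 matrix genes (lower panel; points are NELF and Integrator means and the SPT5 library). Sparc and Col1a1 lie in the upper tail in all groups, at 10.3 and 6.67 times uniform even in the Integrator mean, and the NELF mean of Col3a1 lies below uniform at 0.441.

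Col1a1, which encodes the alpha 1 chain of type I collagen (chr11:94797538-94814356, plus strand), was the one gene of the 9 at which the NELF and Integrator ranges did not overlap. NELFA, NELFB, NELFCD and NELFE gave 26.6, 12.9, 19.4 and 21.3 sites per 100000, SPT5 gave 37.8, and the Integrator libraries gave 5.19 (INTS3), 4.02 (INIP), 12.7 (NABP1), 7.94 (NABP2), 9.13 (INTS9) and 2.95 (INTS11). All 4 NELF libraries and SPT5 lay above all 6 Integrator libraries, though the gap between NELFB and NABP1 was within counting error (4 sites in NELFB, 24 in NABP1). Of 7731 genes with a mean of at least 3 sites, 4.04% had every NELF library above every Integrator library. Col1a1 averaged 8 sites, below the minimum mean of 10 set for the test over whole genes. With that minimum lowered to 3 its log2 difference was 1.48 ± 0.46 (SE, limma adjusted p = 0.109), which does not pass. There 1.71% of the genes were called. With SPT5 added to NELF, Col1a1 averaged 10.1 sites and was called over the whole gene (1.67 ± 0.46, limma adjusted p = 0.0237). In that setting 156 of 1233 tested genes were called.

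The Col1a1 difference was concentrated at the start of the gene. Within 2 kb of the start, NELFA, NELFB, NELFCD and NELFE gave 19.9, 9.69, 7.27 and 21.3 sites per 100000, SPT5 gave 20.7, and INTS3, INIP, NABP1, NABP2, INTS9 and INTS11 gave 2.08, 4.02, 5.31, 6.80, 3.05 and 0. The groups did not overlap, though the lowest NELF value, in NELFCD, rested on 3 sites and the highest Integrator value, in NABP2, on 6. Within 1 kb of the start they did overlap, with 6.46 in NELFB and 6.80 in NABP2. Within 2 kb NELF averaged 14.6 ± 7.11 (SD, n = 4) and Integrator 3.54 ± 2.40 (SD, n = 6), a log2 difference of 1.90 ± 0.67 (SE, limma adjusted p = 0.0194). It was the one called of the 4 start windows tested among the 9 genes, where 35.8% of all 745 tested windows were called and 28.3% had every NELF library above every Integrator library. The tested start windows, those with a mean of at least 3 sites, had a median log2 difference of 1.29. Most of the Col1a1 value was thus shared with the typical tested start. That median was 0.55 with windows of 5 kb around the start and -0.099 with no filter on low counts. After centring on the median gene the Col1a1 difference was 0.41 (limma adjusted p = 0.816). The call was also lost with SOSS libraries alone as Integrator (adjusted p = 0.117), with a window of 5 kb around the start (0.111), with no filter on low counts (0.523), and without NELFA (0.0805), NELFE (0.0517) or INTS11 (0.0659).

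Along Col1a1 the 3 groups also differed in layout. Sites within 2 kb of the start were 66.7% of NELF sites (16 of 24), 54.8% of SPT5 sites (17 of 31) and 44.6% of Integrator sites (25 of 56), in 14.9% of the window's length. The densest 1 kb for NELF ran from -595 to +393 bases relative to the start and contained sites of all 4 subunits, and for Integrator it ran from -324 to +614. SPT5 sites were instead densest from +1067 to +2036, with 11 of 31. In the gene body, from 2 kb to the end, SPT5 gave 15.9 sites per 100000 (13 sites), against 0 to 3.32 in the NELF libraries and 0 to 4.06 in the Integrator libraries; with 1 SPT5 library this has no replicate check. The window also contains Gm17329, a protein-coding gene on the other strand.

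Col1a2, on chromosome 6 (chr6:4454814-4491543, plus strand), encodes the partner chain of type I collagen and did not show the same separation. NELFA, NELFB, NELFCD and NELFE gave 16.6, 12.9, 2.42 and 10.7 sites per 100000, SPT5 gave 21.9, and the Integrator libraries had a lowest value of 0 (INIP), a median of 8.09 and a highest of 14.5 (INTS3). The NELF values overlapped the Integrator range, and the 0 in INIP allows up to 14.8 per 100000 (exact Poisson). Start-proximal sites came from NELFA (3), NELFB (4) and SPT5 (10), with 0 in NELFCD and NELFE, and Integrator had 17 over its 6 libraries. The densest 1 kb of the pooled sites ran from +369 to +1285, around the RefSeq start printed above, which lies 804 bases downstream of the first annotated start. In the gene body NELF averaged 4.93 ± 4.70 and Integrator 5.17 ± 3.28 sites per 100000 (log2 difference -0.25 ± 0.76; limma adjusted p = 0.866), and the sign turned on centring (0.23).

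**Figure D2:**
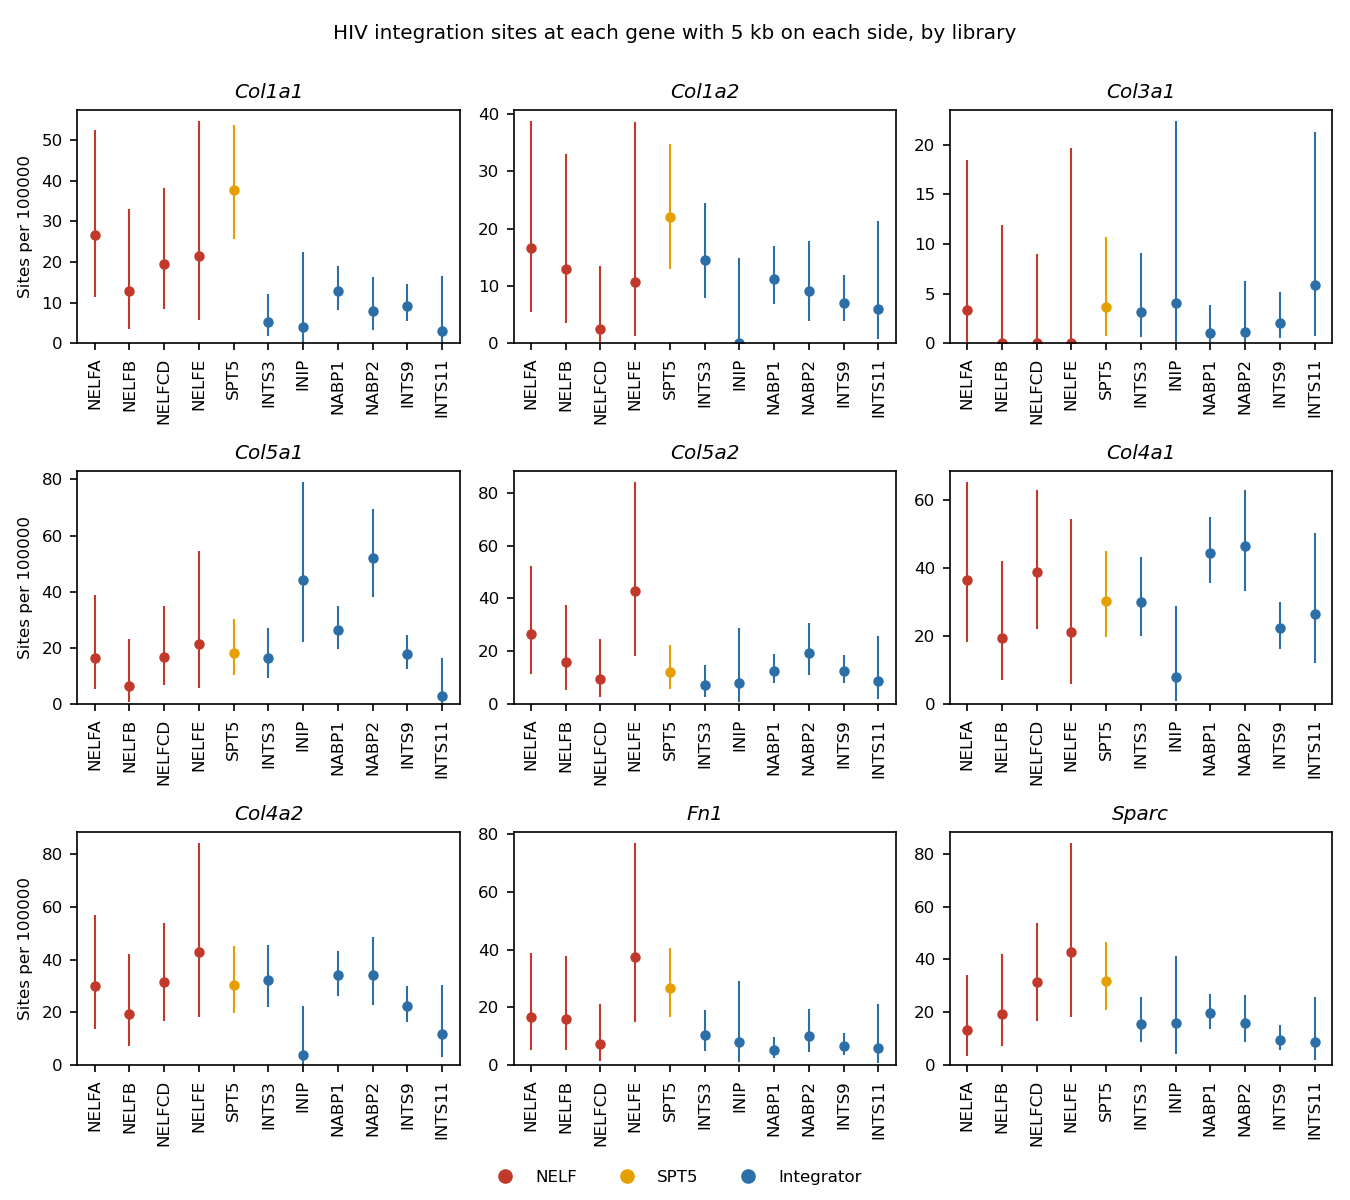
Sites per 100000 at each of the 9 genes with 5 kb on each side (vertical axis, starting at 0, its range differing between panels) in each of the 11 libraries, with exact Poisson 95% intervals. At Col1a1 all NELF points (12.9 to 26.6) lie above all Integrator points (2.95 to 12.7), and at the other 8 genes the 2 groups overlap.

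Col3a1 encodes type III collagen, a fibrillar collagen of skin and vessels (chr1:45368383-45406551, plus strand). It received 1 site in NELFA and 0 in NELFB, NELFCD and NELFE, 3 with SPT5, and 3, 1, 2, 1, 4 and 2 in INTS3, INIP, NABP1, NABP2, INTS9 and INTS11. The libraries at 0 allow up to 11.9 (NELFB), 8.94 (NELFCD) and 19.7 (NELFE) sites per 100000, all above the highest Integrator value of 5.89, so a difference between the complexes was not detectable at this depth. Its neighbour Col5a2, whose model ends 24614 bases away and which is transcribed towards it, received 113 sites in the same libraries, 2.94 times uniform density against 1.17.

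Collagen V, a minor fibrillar collagen that joins type I fibres, is encoded in part by Col5a1 and Col5a2, and no difference was called at either gene. Col5a1 (chr2:27741945-27895034, plus strand) received 16.6, 6.46, 17.0 and 21.3 sites per 100000 in NELFA, NELFB, NELFCD and NELFE, 18.3 with SPT5, and 16.6, 44.2, 26.5, 52.2, 17.8 and 2.95 in INTS3, INIP, NABP1, NABP2, INTS9 and INTS11. INIP and NABP2 were the high libraries and INTS11 the lowest of all 11. The log2 difference of NELF and Integrator was -0.47 ± 0.59 over the gene (limma adjusted p = 0.673) and -0.92 ± 0.54 in the body (0.321), where the median tested gene stood at -0.60. Without INTS11 the values were -0.95 over the gene (adjusted p = 0.228) and -1.38 in the body (0.0698), and with SOSS libraries alone -1.12 (0.173) and -1.55 (0.0826). Without NELFB they were -0.13 and -0.50, over the gene -0.25 without INIP, -0.20 without NABP2 and -0.83 without flanks, and after centring the body value was -0.44.

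The first 20% of the Col5a1 model received 28.6% of NELF sites inside the gene (4 of 14), 84.6% of SPT5 sites (11 of 13) and 55.5% of Integrator sites (86 of 155). Within 2 kb of the start were 27.8% of NELF sites, 60% of SPT5 sites and 10.1% of Integrator sites, in 2.45% of the window. The densest 1 kb for Integrator, with 12 sites of 4 libraries, lay at +4561 to +5349. The lincRNA models 2810430I11Rik and Gm13372 lie in the window on the other strand.

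Col5a2 (chr1:45431166-45560127, minus strand) received 26.6, 16.1, 9.69 and 42.7 sites per 100000 in NELFA, NELFB, NELFCD and NELFE, 12.2 with SPT5, and 7.27, 8.03, 12.7, 19.3, 12.7 and 8.84 in INTS3, INIP, NABP1, NABP2, INTS9 and INTS11. NELFA and NELFE exceeded every Integrator library, and NELFB and NELFCD fell within their range. The log2 difference was 0.87 ± 0.44 (limma adjusted p = 0.266). Its start window had too few sites for the test, 1.7 per library, but the groups there did not overlap: 3.32, 9.69, 4.85 and 16.0 per 100000 in NELFA, NELFB, NELFCD and NELFE, 9.75 with SPT5, and 0 to 2.27 in the Integrator libraries, 3 of which had no site. Among the tested start windows 28.3% had no overlap in this direction, and within 1 kb of the Col5a2 start the groups did overlap, with 0 in NELFA. With no filter on low counts the log2 difference at this start was 2.32 (adjusted p = 0.314).

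At Col5a2, 8 of the 9 NELF start-window sites fell between +92 and +1018 bases and came from all 4 subunits, and 8 of 10 SPT5 sites (80%) lay within 2 kb of the start, against 36% of NELF sites and 10.3% of Integrator sites. One base, at +1011, was hit in 3 libraries, INTS9, NABP2 and SPT5, the one position of the 9 genes with more than 2.

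**Figure D3:**
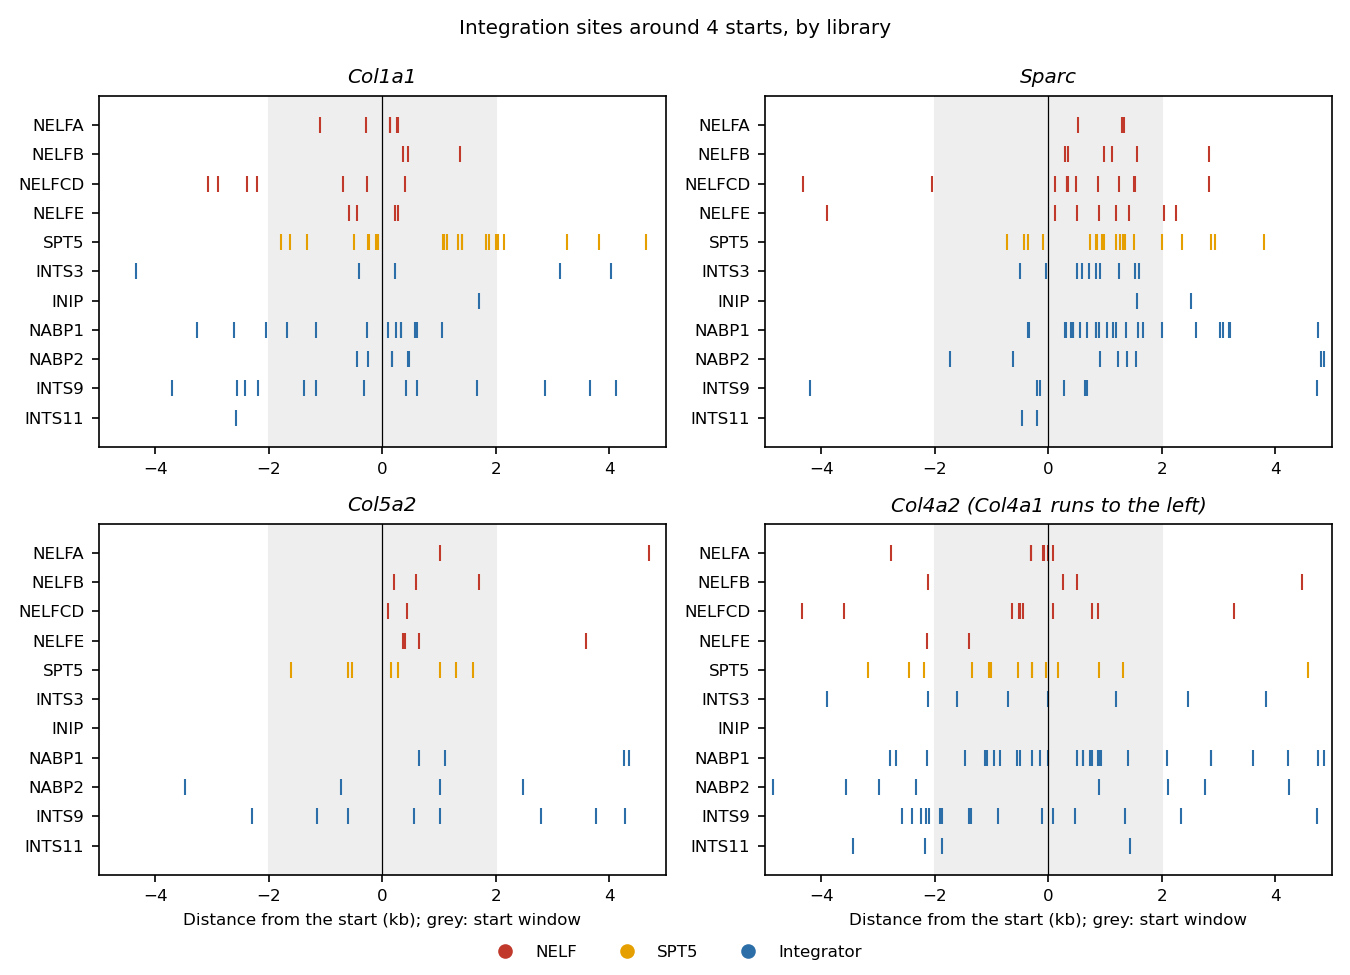
Sites within 5 kb of the starts of Col1a1, Sparc, Col5a2 and Col4a2 (horizontal axis, distance from the start in kb, downstream to the right), a row for each library and a tick for each site. NELF ticks gather between +92 and +1018 bases at Col5a2 and between -595 and +393 at Col1a1, and sites of 9 libraries meet between +273 and +1258 at Sparc.

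Col4a1 and Col4a2 encode the 2 chains of the most widespread collagen IV (chr8:11198423-11312826 on the minus strand, chr8:11312805-11449287 on the plus strand). Their models overlap by 22 bases at their starts, so the start window is in effect 1 region, and 102 sites count for both genes. Col4a1 received 36.5, 19.4, 38.8 and 21.3 sites per 100000 in NELFA, NELFB, NELFCD and NELFE, 30.5 with SPT5, and 30.1, 8.03, 44.6, 46.5, 22.3 and 26.5 in INTS3, INIP, NABP1, NABP2, INTS9 and INTS11. Col4a2 received 29.9, 19.4, 31.5 and 42.7 in the NELF libraries in the same order, 30.5 with SPT5, and 32.2, 4.02, 34.0, 34.0, 22.3 and 11.8 in the Integrator libraries. INIP was lowest at both, and the groups overlapped at both.

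Over the whole genes no difference was called: log2 0.09 ± 0.43 at Col4a1 (limma adjusted p = 0.930; the sign turned without flanks, -0.11) and 0.63 ± 0.50 at Col4a2 (0.494). At the shared start NELFA, NELFB, NELFCD and NELFE gave 19.9, 6.46, 17.0 and 5.33 sites per 100000, SPT5 gave 12.2, and INTS3, INIP, NABP1, NABP2, INTS9 and INTS11 gave 4.15, 0, 10.1, 1.13, 4.57 and 5.89. NELFA and NELFCD lay above all Integrator libraries, NELFB and NELFE did not. The log2 difference of 1.5 ± 0.68 (limma adjusted p = 0.0678) was near the median of the tested starts (1.29) and 0.01 after centring. It passed 0.05 with a pseudocount of 3 (0.0404), with SPT5 added to NELF (0.0370), and without NABP1 (0.0429) or NELFE (0.0405).

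The share of sites within 2 kb of the shared start was 43.2% for NELF, 40% for SPT5 and 16.7% for Integrator at Col4a1, in 3.22% of the window. Cut into 5 equal stretches, the Col4a1 model held 75, 46, 43, 8 and 6 Integrator sites from front to back, those near the start included. In the body NELF averaged 15.4 ± 4.10 and Integrator 23.4 ± 11.8 sites per 100000 at Col4a1 (log2 difference -0.45 ± 0.39, limma adjusted p = 0.514; 0.03 after centring). Col4a2 averaged 14.5 ± 11.7 with NELF and 15.6 ± 11.6 with Integrator (0.31 ± 0.74, adjusted p = 0.832), with 6.64, 9.69, 9.69 and 32.0 in NELFA, NELFB, NELFCD and NELFE. The log2 value was positive although the NELF mean was lower, because on the log scale INTS11 (0 sites) and INIP (1 site) lowered the Integrator mean. It turned to -0.37 without INTS11, to -0.41 with SOSS libraries alone and to -0.14 without NELFE.

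Fn1 encodes fibronectin, which links integrins to collagen (chr1:71632094-71699774, minus strand). It received 16.6, 16.1, 7.27 and 37.3 sites per 100000 in NELFA, NELFB, NELFCD and NELFE, 26.8 with SPT5, and 10.4, 8.03, 5.31, 10.2, 6.60 and 5.89 in INTS3, INIP, NABP1, NABP2, INTS9 and INTS11. NELFA, NELFB, NELFE and SPT5 exceeded every Integrator library, and NELFCD fell among them. With the minimum mean lowered to 3 the log2 difference was 1.05 ± 0.46 (limma adjusted p = 0.280). NELFE gave 6 of its 7 Fn1 sites in the gene body, from +12278 to +67331, 32.0 per 100000 against 3.23 to 6.64 in the other NELF libraries. SPT5 sites lay towards the front, with 80% of those inside the gene (16 of 20) in its first 20%, against 28.6% for NELF (4 of 14) and 57.9% for Integrator (22 of 38).

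Sparc encodes a collagen-binding glycoprotein of remodelling tissue (chr11:55208002-55233582, minus strand), and its model is the second shortest of the 9 after Col1a1. It received 13.3, 19.4, 31.5 and 42.7 sites per 100000 in NELFA, NELFB, NELFCD and NELFE, 31.7 with SPT5, and 15.6, 16.1, 19.6, 15.9, 9.64 and 8.84 in INTS3, INIP, NABP1, NABP2, INTS9 and INTS11. NELFCD and NELFE exceeded all Integrator libraries, and NELFA and NELFB fell within their range. The log2 difference was 0.78 ± 0.38 over the gene (limma adjusted p = 0.237).

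In the Sparc start window NELFA, NELFB, NELFCD and NELFE gave 9.96, 16.1, 21.8 and 26.7 sites per 100000, SPT5 gave 18.3, and INTS3, INIP, NABP1, NABP2, INTS9 and INTS11 gave 10.4, 4.02, 10.1, 6.80, 2.54 and 5.89. NELFA alone of the NELF libraries reached down into the Integrator range. The means were 18.7 ± 7.21 for NELF and 6.62 ± 3.17 for Integrator, a log2 difference of 1.40 ± 0.65 (limma adjusted p = 0.0764). This is close to the median of the tested starts and was -0.091 after centring. The call was gained with a pseudocount of 3 (0.0285) and without INIP (0.0418).

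Sparc had more sites in a single kb than any other of the 9 genes: 46 of its 149 sites, from 9 libraries, fell between +273 and +1258 bases, downstream of the promoter printed above. NELF had 15 of 31 sites in its densest 1 kb (+292 to +1289) and Integrator 25 of 92 (+273 to +1239), so both groups met at the same stretch. SPT5 was densest at +731 to +1511 with 10 of 26. Beyond it the groups parted, with 92.9% of NELF sites inside the gene in its first 20% (26 of 28), 68.2% of SPT5 sites (15 of 22) and 58.2% of Integrator sites (46 of 79). In the body the log2 difference was -0.38 ± 0.59 (limma adjusted p = 0.736), 0.11 after centring, and -1.70 ± 0.69 for the body from 5 kb downstream (adjusted p = 0.167).

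**Figure D4:**
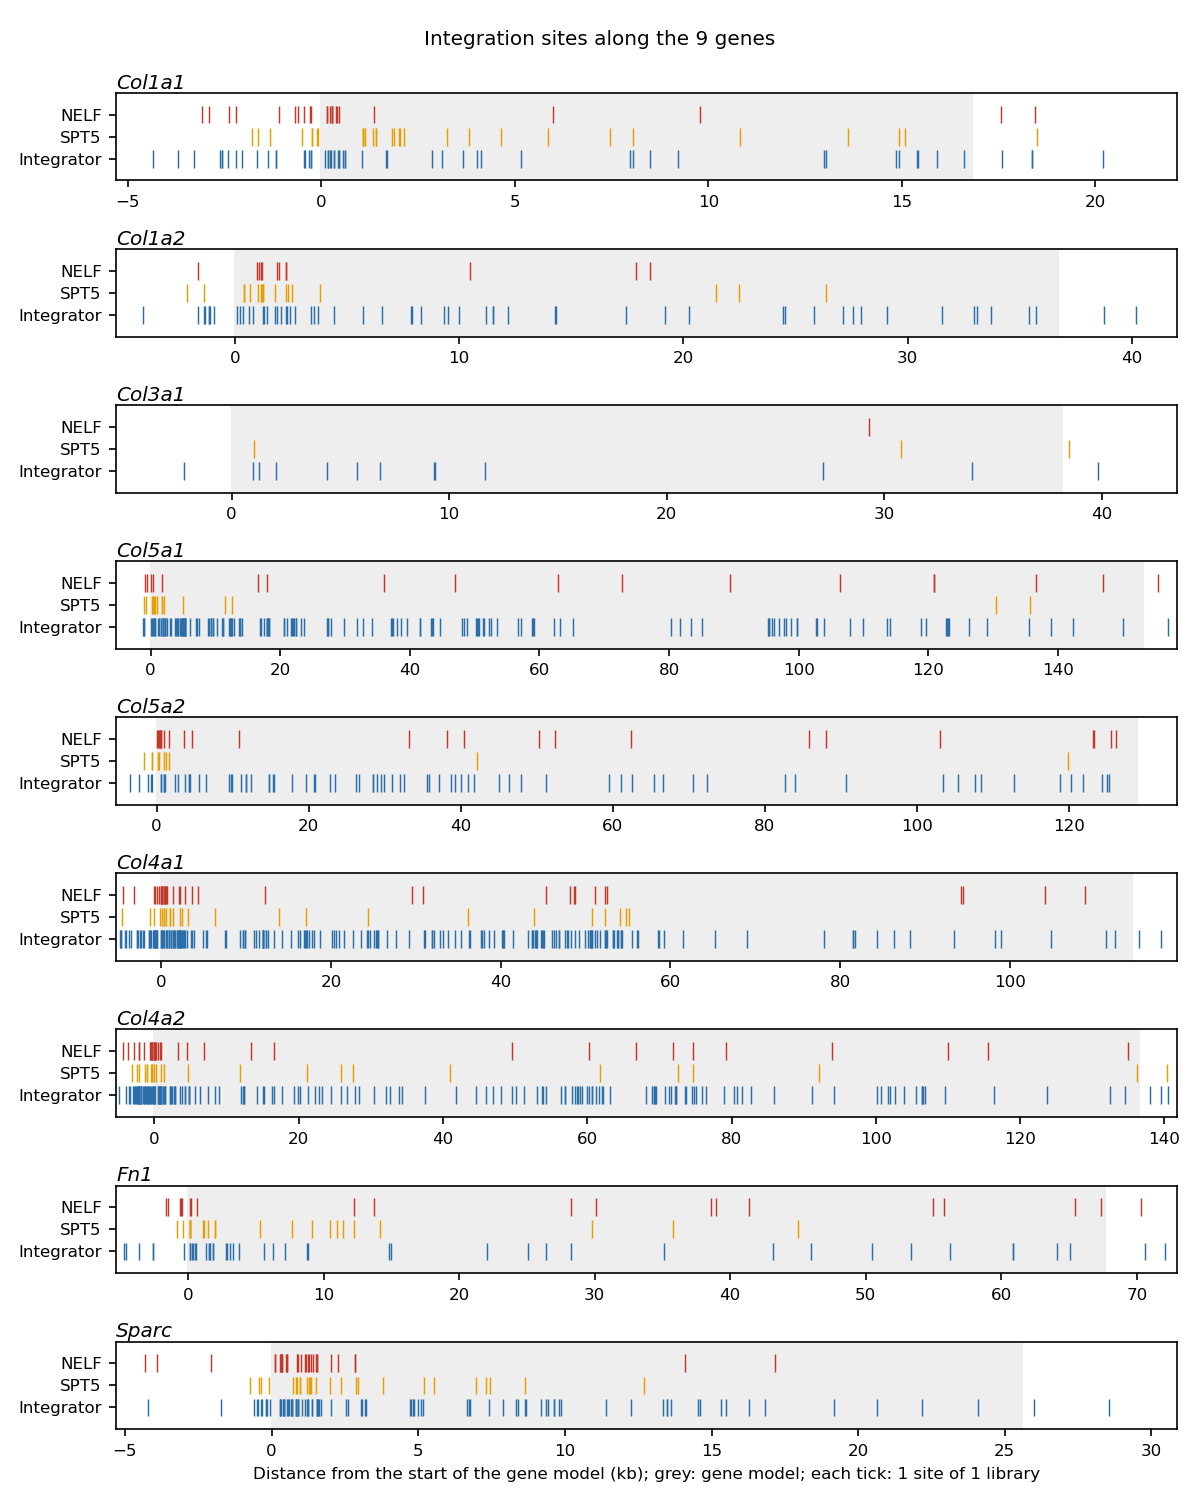
Positions of all sites along the 9 genes (horizontal axis, distance from the start of the model in kb, scale differing between panels; grey, gene model), NELF above SPT5 above Integrator, a tick for each site of each library. NELF and SPT5 ticks crowd at the starts of most genes, Integrator ticks extend into the bodies of Col5a1, Col4a1 and Col4a2, and Col3a1 is nearly empty; the Integrator rows pool 6 libraries and hold more sites in all.

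Across the 9 genes, counts of calls against all genes were as follows. Over whole genes 5 of the 9 passed the minimum and 0 were called by limma, where 7.9% of 1139 tested genes were called; 0 of the 5 had an unadjusted p under 0.05, against 22.6% of all tested. In the start windows 1 of 4 was called, with 35.8% of all windows called; all 4 had an unadjusted p under 0.05, against 46.7% of all tested, and Col4a1 and Col4a2 are the same window. In the bodies 0 of 7 were called, with 1.94% of 3875 called; 0 of the 7 had an unadjusted p under 0.05, against 20.8% of all tested. The median log2 difference of the tested members was 0.63 over genes, 1.5 at starts and -0.25 in bodies, and the medians of all tested features were -0.07, 1.29 and -0.60. With so few members tested, these counts are no result about the matrix genes as a group. The minimum is also a mean of raw site counts. The largest libraries, INTS9 and NABP1, both Integrator, therefore weigh most in which genes are tested. Col1a1, with 20.05 sites per 100000 in the NELF mean and 6.99 in the Integrator mean, fell below it over the whole gene.

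**Figure D5:**
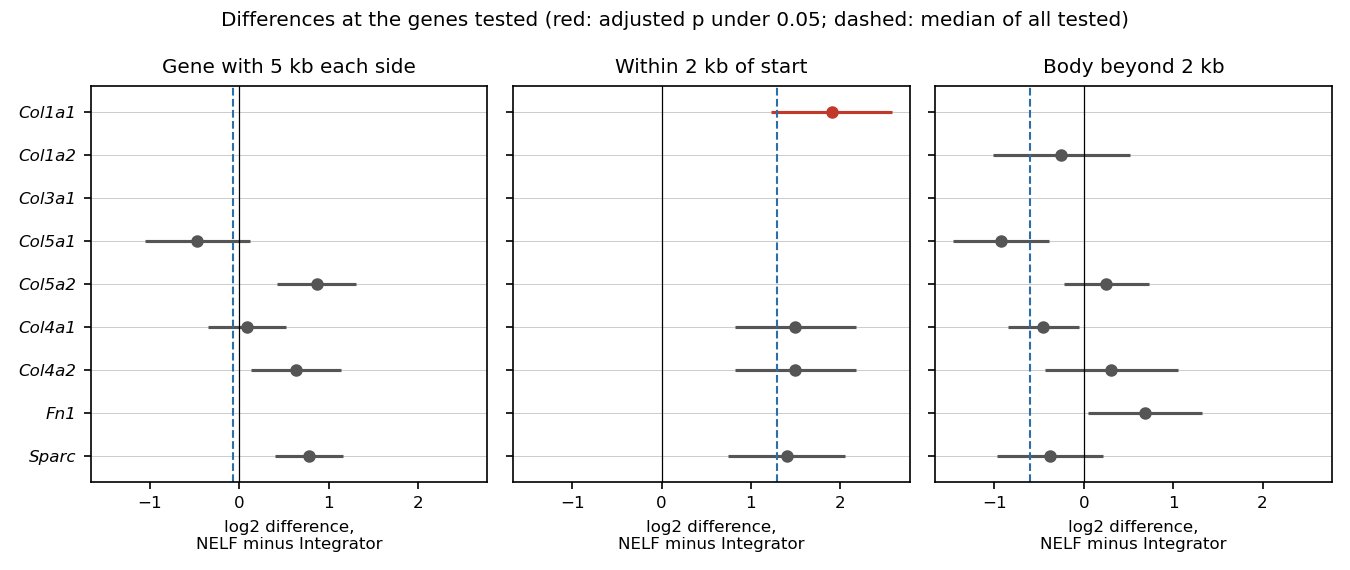
Log2 difference of NELF minus Integrator with its SE (horizontal axis) for the genes that passed the minimum in each of the 3 tests; dashed lines mark the median of all tested features. Col1a1 is the single called value (1.90, start windows), and all 4 start values lie within 1 SE of the dashed line at 1.29.

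Strand and exon content varied by gene. Sites recorded on the strand of the gene were 54.8% of NELF, 53.8% of SPT5 and 54.3% of Integrator sites at Sparc, and 62.5%, 45.2% and 62.5% at Col1a1. Exons received 28% of NELF sites inside Col5a2 (7 of 25), 28.6% of SPT5 sites (2 of 7) and 2.74% of Integrator sites (2 of 73), with exons covering 7.44% of the model. At Col4a1 these shares were 10.3%, 4.76% and 2.81%, with exons at 5.96%.

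At the 9 genes, 20 positions were hit in more than 1 library, 13 of them within 2 kb of a start, and no position by 2 NELF libraries. In the series as a whole, pairs of libraries shared at most 0.607% of the smaller library's positions. The median was 0.312% for pairs that share a flow cell name and 0.25% for pairs that do not. Of the shared positions, 6 are shown as examples with the 12 bases on either side, in the direction of the recorded strand. Of these, 5 pair libraries of different complexes at 1 base. Such pairs are not confined to the positions shown: 9 of the 20 pair a NELF library with a library of another group. The pair at Sparc -195, INTS9 and INTS11, is from the same module and shares the flow cell name FC. The capital is the recorded base.

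Sparc +508, INTS3 and NELFE, chr11:55233062-55233086: tggtctgtcctcTgtcaccctcgga
Sparc -195, INTS9 and INTS11, chr11:55233765-55233789: tcgctggctgtgTgtaaagtaggac
Sparc +1197, SPT5 and NABP1, chr11:55232373-55232397: ttaaaagagttgTcagtggagacac
Col4a1 +36 and Col4a2 -15, NELFA and INTS3, chr8:11312778-11312802: ttgttggcgctgCcccctcccctcg
Col4a2 +880, NELFCD and NABP1, chr8:11313673-11313697: agcgtcttggggGtaagtaccgctt
Col1a2 +2262, NELFE and NABP1, chr6:4457064-4457088: atccacttttatAtacccctcgagg

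The Sparc -195 and Col4a2 -15 sites lie inside the promoters printed above. How the same base came to be recorded in 2 libraries was not tested.

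Other genes of matrix biology, from lists drawn up with the earlier results of these data known, were less densely hit as list sums, though single genes were denser than Sparc: Pcolce averaged 19.8 times uniform over the 11 libraries, Serpinh1 16.7, P4hb 15.8, Sdc4 15.4, Ddr1 15.4 and Thbs1 15.3. The 26 other fibroblast collagens and collagen-processing enzymes together stood at 2.36 times uniform with NELF, 3.40 with SPT5 and 2.21 with Integrator, and the 9 genes, summed gene by gene in the same way, at 5.59, 6.75 and 4.14. None of the 26 passed any test (3 tested over genes, 2 at starts, 12 in bodies). Those with the highest rate averaged over the 11 libraries were Loxl1, a crosslinking lysyl oxidase homologue, Pcolce, an enhancer of procollagen cleavage, and P4hb, a subunit of prolyl 4-hydroxylase. Pcolce averaged 25.2 ± 11.9 sites per 100000 with NELF, 18.3 with SPT5 and 6.64 ± 4.67 with Integrator, and P4hb 8.83 ± 6.04, 32.9 and 14.6 ± 9.79.

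Of 22 other matrix proteins and proteases, Hspg2 (perlecan), Timp2 (an inhibitor of matrix metalloproteases) and Fbn1 (fibrillin-1) had the highest mean rates, and the list stood at 2.86, 3.03 and 2.26 times uniform with NELF, SPT5 and Integrator. Of its 4 tested starts 1 was called, against 35.8% of all tested starts. It was Thbs1, the matrix glycoprotein thrombospondin-1, with a log2 difference of 1.88 ± 0.68 (limma adjusted p = 0.0209). Like Col1a1 it was lower after centring, at 0.39 (adjusted p = 0.816). The call was lost without NELFA (0.0541), NELFB (0.106), NELFCD (0.0543) or INTS9 (0.0673). Thbs1 was named after its values were seen, as were Vim, Cald1 and Serpinh1 (a collagen chaperone). Of 14 matrix receptors, at 3.07, 3.58 and 3.46 times uniform, Ddr1 (a collagen receptor kinase), Itgb1 (integrin beta 1) and Sdc4 (syndecan-4) had the highest mean rates. Itgb1 was called lower in its body, by a log2 difference of -2.66 ± 0.55 (limma adjusted p = 0.00884). It was 1 of 12 tested bodies of the list, against 1.94% of all tested bodies called. The call was lost without NABP1 (0.0683) or NABP2 (0.0604) and with a minimum mean of 10 (0.0806).

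Collagens of cartilage, nerve, muscle and other tissues served as a contrast. The 14 genes stood at 0.767, 0.505 and 0.773 times uniform with NELF, SPT5 and Integrator, and 1 of the 14 lay above the median gene. Col23a1, Col19a1 and Col22a1 had the highest mean rates per 100000, and their densities were 1.0, 0.782 and 1.02 times uniform over the 11 libraries. Of the markers, the 9 fibroblast genes stood at 4.87, 5.49 and 3.93 times uniform with NELF, SPT5 and Integrator. In the same order of groups, the epithelial list stood at 1.23, 0.571 and 1.71, the endothelial at 0.811, 0.778 and 1.20, the blood list at 1.22, 2.65 and 1.13, and the hepatocyte list at 1.39, 0 and 0.530. Of the fibroblast markers, 1 of 2 tested starts and 1 of 4 tested bodies were called, against 35.8% of all tested starts and 1.94% of all bodies. Vim (vimentin) was higher at its start (log2 1.95 ± 0.66, limma adjusted p = 0.0147), with 0.46 after centring. Cald1 (caldesmon) was lower in its body (-1.42 ± 0.38, limma adjusted p = 0.0421), where the median tested body stood at -0.60. The Vim call was lost without NELFA (0.0712) or NELFB (0.0633), and the Cald1 call without INTS3, NABP1, NABP2, INTS9, NELFB or NELFCD (0.0613 to 0.124).

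The genes whose rates varied most like the summed matrix genes over the 11 libraries, among 1134 compared, were Igfbp7 (Pearson r = 0.862), Tuba1a (0.832), Bcl2l1 (0.821), Tmpo (0.816) and Csf1 (0.816), on log2(sites per 100000 + 1). This is a ranking over 11 libraries that differ in depth, some of which share a flow cell. Igfbp7 gave 29.9, 25.8, 21.8 and 37.3 sites per 100000 in NELFA, NELFB, NELFCD and NELFE, 25.6 with SPT5, and 5.89 to 22.7 in the Integrator libraries.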

How the data were processed

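Integration sites were amplified from genomic DNA by linker-mediated PCR with an LTR primer and sequenced in pairs, per the labels' protocols. The authors deposited a list of mapped junctions per library on build mm9, per the labels; no label or header names the aligner or its filters. The deposited lists have no expression or depth value: the measured quantity is a base and a strand. Entries sharing chromosome, base and strand were counted as 1 distinct site (831994 of 873534 entries), 18753 to 197069 per library, which sets the counting error. Sites within 5 kb of GENCODE vM1 models (same assembly), within 2 kb of the start, and in the body beyond 2 kb were expressed per 100000. Fold over uniform divides by the genome's bases without N. NELF and Integrator were compared with limma 3.58.1 (R 4.3.3; trend and robust; log2(rate + 1); Benjamini-Hochberg over all features) where the 10 libraries averaged 10 sites for genes or 3 for starts and bodies; fold changes understate low genes. Counting used Python 3.11.15, numpy 2.4.6, pandas 2.3.3 and scipy 1.17.1. The procedure was tested on simulated data. SPT5 (1 library) was not in the fit. Members, lists and tests were chosen with earlier results of these data known. Named besides the 9 genes are, by rule, the 3 genes of each matrix list with the highest mean rate, any that pass the whole-gene test (0 did), and the 5 most alike in profile. Genes lying in the member windows are named as neighbours. Thbs1, Serpinh1, Vim, Cald1, Pdgfra, Pdgfrb, Krt8 and Cd68 fall outside the rule and were named with their values known. Alternatives were other pseudocounts, scalings, filters, windows, groupings, site merging and leaving out each library. Replicates are subunits, and p-values set the difference of the group means against the spread between libraries within the groups. Each library counted equally in the fit, whatever its number of sites.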

Additional observations from a re-analysis of the deposited data

Results flagged for a closer look

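In 56 groups of 4 to 6 libraries checked for a library standing apart from the rest, 5 were found. The rule's nominal rate of 1 in 20 groups does not apply here, since the counts are sparse and some groups share sites. Of the 5, 3 concern Col3a1 and rest on 1 or 2 sites. Where all other libraries have 0, any site meets the rule. NELFA had 3.32 sites per 100000 over the gene, all of it in the gene body (3.32), and the other NELF libraries had 0. INTS3 had 2.08 in the start window, and the other Integrator libraries had 0.

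The other 2 concern NELFE, the smallest library. It had 32.0 sites per 100000 in the body of Col4a2, against 6.64 to 9.69 in the other NELF libraries. It also had 32.0 in the body of Fn1, against 3.23 to 6.64. Each value is 6 sites at separate bases.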

How the results depend on the processing

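Counts of called genes moved most. Over whole genes (90 called) they were 156 with SPT5 added to NELF, 6 without flanks and 33 with 2 kb flanks, and 71 to 104 when a library was left out. At starts (267 called) they were 59 after centring on the median gene (28 higher, 31 lower, against 263 and 4), 171 with SOSS libraries alone, 420 with SPT5 added, 22 with a mean of at least 10 sites, 71 with no filter, 162 within 1 kb, and 151 to 350 when a library was left out (151 without NELFB, 174 without NELFCD). In bodies (75 called) they were 45 with pseudocount 0.5, 127 with pseudocount 3, 25 after centring (15 higher, 10 lower, against 5 and 70), 6 with a mean of at least 10, 33 with no filter, 35 from 5 kb on, and 8 to 140 when a library was left out (8 without NABP1, 11 without NABP2, 24 without NELFB, 25 without INTS3, 27 without INTS9, 130 without INIP, 135 without NELFE, 140 without INTS11). Without flanks the split over genes was 3 higher and 3 lower, against 86 and 4. In bodies it was 2 higher and 4 lower with a mean of at least 10, and 6 and 19, 3 and 5, and 4 and 7 without INTS3, NABP1 and NABP2. The cause was not tested.

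Log2 values that changed sign were all uncalled. Centring gave -0.091 at the Sparc start and, in bodies, 0.23 for Col1a2, 0.034 for Col4a1 and 0.11 for Sparc. Col4a1 over the gene was -0.11 without flanks and -0.23 to 0.25 when a library was left out. In bodies Col5a2 was -0.13 with SPT5 added and Col4a2 -0.41 with SOSS alone; leaving out a library gave -0.75 to 0.43 for Col1a2, -0.11 to 0.64 for Col5a2 and -0.37 to 0.61 for Col4a2. The Col1a1 start was 1.52 to 2.17 when a library was left out (adjusted p 0.00894 to 0.0805). Thbs1 (0.0028 to 0.106), Vim (0.00223 to 0.0712), Itgb1 (0.00724 to 0.0683) and Cald1 (0.0244 to 0.124) also crossed 0.05. The summed level of the 9 genes ranged from 135 to 175 sites per 100000 for NELF and 109 to 133 for Integrator.

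Depth limits all values for single genes, most in NELFE, INIP, NELFA, NELFB and INTS11. No paired analysis was possible because the libraries carry no replicate numbers.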
